A study of Mus musculus with 4 samples.

Results

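The genes described here are 9 regulators of mitochondrial and oxidative genes in the mouse stomach corpus: the estrogen-related receptors (ERRs) Esrra, Esrrb and Esrrg, the coactivators Ppargc1a and Ppargc1b, the fatty acid sensing receptor Ppara, the nuclear respiratory factors Nrf1 and Gabpa, and Tfam. They were taken by gene symbol from a table of 52125 rows, and all 9 were found and passed the filter on low values that kept 18285 genes. The corpus is the gastric region that makes acid, and its total RNA was sequenced from 4 wild-type C57BL/6 mice aged 6 to 8 weeks, 1 mouse per library. In the HDT group, 2 mice had received 1 intraperitoneal dose of 5 mg per 20 g of body weight, given to damage the tissue, and were sampled 48 hr later. The other 2 mice are called vehicle in the sample titles and untreated in the protocol, so whether they were injected is not known here. The labels do not spell out HDT, which in work on gastric injury usually stands for high-dose tamoxifen.

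ERRs are nuclear receptors without a known natural hormone that bind DNA at a single extended half-site and switch on genes of the respiratory chain, the TCA cycle and fatty acid oxidation. They depend on the PGC-1 proteins, coactivators that bind no DNA themselves and that also work with PPAR-alpha and the nuclear respiratory factors. NRF-1 and GABP in turn drive nuclear genes of the respiratory chain and Tfam, the protein that packages mitochondrial DNA and is needed for its transcription. Parietal cells, which pump acid, are among the cells richest in mitochondria, and Esrrg has been described as a regulator of their formation.

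At 48 hr after HDT, 3 of the 9 genes were lower, 2 were higher and 4 were not called, by limma with Benjamini-Hochberg adjustment over all tested genes and a threshold of 0.05. Esrrb fell to 9.95% of its vehicle level, Ppargc1a to 23.8% and Esrra to 71.6%, while Nrf1 and Tfam rose to 133% and 118%. Among all tested genes 19.3% were called lower and 18.4% higher, 37.7% in all, so the number of called regulators says little by itself and the sizes differ widely between them. Both HDT mice lay outside both vehicle mice for 7 of the 9 genes, against 70.8% of all tested genes: below them for 5 (35.5% of all tested genes) and above them for 2 (35.3%). With 2 mice against 2, an exact permutation test of a single gene cannot go below p = 0.333, so the calls rest on the spread that limma borrows from other genes.

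The direction of modest changes depends on how libraries are scaled. The values below are CPM, recovered reads scaled to a common library size after TMM (a correction for differences in RNA composition), and depth was 41536686 to 42674985 reads per library. Over the tested genes the median log2 fold change was -0.0015 with TMM. With the values as deposited it was 0.53, and 11483 genes were called higher and 998 lower, against 3369 and 3520 with TMM. As deposited, 4 of the 9 regulators were higher (Nrf1, Tfam, Gabpa and Ppargc1b) and 2 lower (Esrrb and Ppargc1a), and the log2 fold change of Esrra was 0.05, of Esrrg 0.04 and of Ppara 0.02. That scaling moves the genes up together. Relative to its median the log2 values were -0.48 for Esrra, -0.49 for Esrrg, -0.51 for Ppara and -0.26 for Ppargc1b. The scalings differ only by a factor per library, so these values are near those of TMM by construction. Changes below are with TMM unless the deposited scaling is named.

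Vehicle replicate 2 stood apart in markers of pancreatic acinar cells, which summed to 36.2 CPM in vehicle replicate 1, 137.5 in vehicle replicate 2, and 13.5 and 13.7 in the HDT mice. Cpa1, a pancreatic carboxypeptidase gene, was at 16.1 CPM in that mouse and at 0 in the other 3, and 0 of the 3 tested markers were called. With that mouse left out, Esrrb (-3.26), Ppargc1a (-2.33), Esrra (-0.50) and Nrf1 (0.39) kept their calls and Tfam (0.22) did not. Tfam also lost its call without vehicle replicate 1 (0.25) or HDT replicate 1 (0.23), so this is not particular to vehicle replicate 2.

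**Figure D1:**
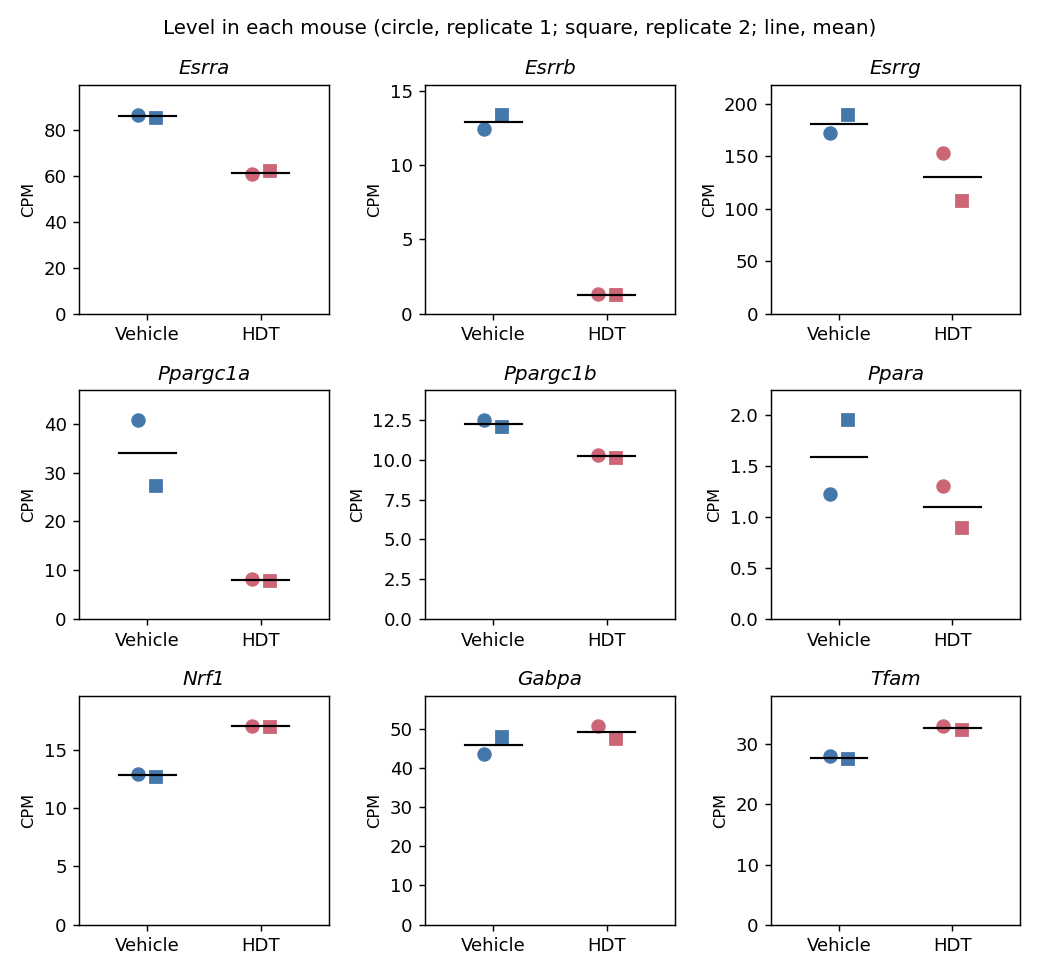
Level of each of the 9 regulators in CPM on a linear axis from 0, in 2 vehicle mice (blue) and 2 HDT mice (red), with the mean of each group as a line. Esrrb and Ppargc1a stand far lower in both HDT mice, the HDT mice differ in Esrrg, and the groups overlap for Ppara and Gabpa.

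Among the receptors, Esrrb (chromosome 12, 86361117 to 86521628, GRCm38, whole protein-coding gene in GENCODE M21) changed most. Its level was 12.4 and 13.4 CPM in the vehicle mice and 1.303 and 1.268 CPM in the HDT mice, from 438, 461, 67 and 64 reads. The groups lie far apart and the mice within each group are close. The log2 fold change was -3.31 (SE 0.137, n = 2 per group, limma adjusted p = 3.4e-06), the 49th largest of the 3520 called falls. It was called in all 15 alternatives other than the deposited scaling, with log2 fold changes from -3.37 to -3.23, and also as deposited (-2.78, limma adjusted p = 6.25e-07). The stretch upstream of its first RefSeq start is shown because this was the largest change in the group. It spans chr12:86360867-86361116 (GRCm38.p6, plus strand), 250 bases, and capitals mark the CREB half-site TGACG:

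Esrrb: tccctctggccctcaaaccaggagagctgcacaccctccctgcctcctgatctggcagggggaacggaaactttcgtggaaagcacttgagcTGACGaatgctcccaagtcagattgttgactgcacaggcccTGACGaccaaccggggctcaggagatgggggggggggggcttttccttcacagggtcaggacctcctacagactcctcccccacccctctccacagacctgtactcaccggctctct

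TGACG occurs at 2 places in the Esrrb window, at 158 to 154 and at 117 to 113 bases before the start. Either strand was searched, and 17.8% of all 32851 RefSeq windows of 250 bases hold this short motif. Of the 12110 tested genes with a window, 28.6% hold it in at least 1 of their windows. The ERR half-site TNAAGGTCA was found in none of the 13 windows of the 8 regulators that have one, which 374 of all windows hold.

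Esrra (chromosome 19, 6910977 to 6921813), the ERR most often tied to the respiratory chain, was at 86.4 and 84.98 CPM in vehicle and at 60.7 and 61.96 CPM in HDT. The groups did not overlap, and the gap between them is far wider than that between the mice of a group. The log2 fold change was -0.48 (SE 0.0590, limma adjusted p = 0.000515), and it was called in all 15 alternatives other than the deposited scaling, where its log2 fold change was 0.05 (limma adjusted p = 0.515). Esrra shares 73 of its 4387 exon bases with the opposite-strand gene Trmt112, and without a stated strand setting reads from that stretch cannot be assigned to either gene.

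Esrrg (chromosome 1, 187608791 to 188214885) was the most abundant of the 9 genes in every library, also per length of exon. It was at 172 and 189 CPM in vehicle and at 153 and 107 CPM in HDT. Both HDT mice were below both vehicle mice, but the HDT mice stood 1.43-fold apart. Among the 2040 tested genes within 2-fold of its HDT level, 98.97% had a smaller gap between the HDT mice. The log2 fold change of -0.49, with a 95% interval from -1.02 to 0.03, was as large as that of Esrra but was not called (limma adjusted p = 0.123). Without HDT replicate 1 the log2 fold change was -0.75, and without HDT replicate 2 it was -0.22, each from a single HDT mouse. By limma without robust moderation, with every mouse kept, Esrrg was called lower (limma adjusted p = 0.046).

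Levels of different genes can be compared only per length of exon. Per kilobase, the vehicle order was Esrrg at 29.1 ± 1.98, Esrra at 19.5 ± 0.234, Gabpa at 8.05 ± 0.539 and Tfam at 6.25 ± 0.0906 CPM (SD, n = 2). Ppargc1a followed at 5.16 ± 1.44, Ppargc1b at 3.07 ± 0.0745, Esrrb at 2.14 ± 0.110, Nrf1 at 1.25 ± 0.0162 and Ppara at 0.413 ± 0.133 CPM per kb. The spread of Ppargc1a reaches Tfam above it, and the other neighbours in this order lay further apart than their SDs. In HDT the order below Tfam changed: Ppargc1b was at 2.56 ± 0.0354, Nrf1 at 1.65 ± 0.00495, Ppargc1a at 1.23 ± 0.0446, Ppara at 0.286 ± 0.0758 and Esrrb at 0.213 ± 0.00405 CPM per kb. The last 2 of these differ by less than the SD of Ppara.

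In the makeup of the receptor family, only the share of its scarcest member, Esrrb, set both HDT mice apart from both vehicle mice. Esrrb was 4.16% and 4.25% of the summed ERR level per kb in the vehicle mice and 0.556% and 0.664% in the HDT mice. Esrrg was 56.0% and 58.6% in vehicle and 63.7% and 54.6% in HDT, and Esrra 39.8% and 37.2%, then 35.7% and 44.7%. For both genes the HDT mice lie on both sides of the vehicle mice. The sum of the 3 receptors was 49.5 and 52.1 CPM per kb in vehicle and 38.7 and 31.6 in HDT.

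**Figure D2:**
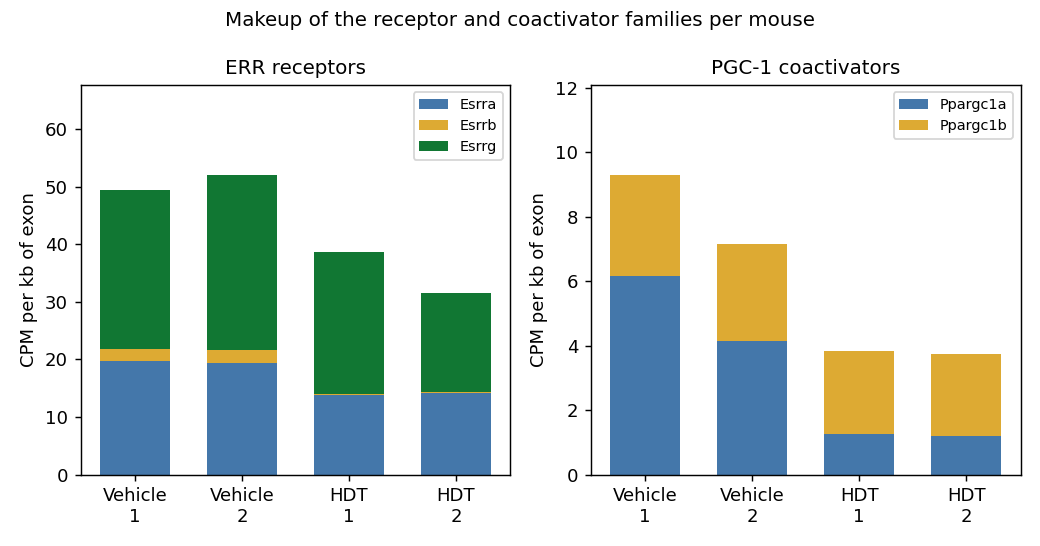
Stacked levels in CPM per kb of exon for the 3 ERR genes (left) and the 2 PGC-1 genes (right), 1 bar per mouse, axes from 0. The thin Esrrb segment nearly vanishes in HDT, and Ppargc1a goes from the larger to the smaller of the PGC-1 genes.

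Of the coactivators, Ppargc1a (chromosome 5, 51454250 to 51567726), which encodes PGC-1-alpha, was at 40.7 and 27.3 CPM in vehicle and at 8.30 and 7.89 CPM in HDT. The vehicle mice stood 1.49-fold apart, a gap larger than that of 99.0% of 4907 genes of like level, yet both were more than 3 times above either HDT mouse. The log2 fold change was -2.04 (SE 0.188, limma adjusted p = 0.000646), the 204th largest called fall. It was not called without HDT replicate 1, at a like size (-2.07, limma adjusted p = 0.055), and it was called in the other 15 alternatives, the deposited scaling included (-1.51, limma adjusted p = 0.0029). Its upstream sequence is shown as that of the coactivator that fell, chr5:51567727-51567975 (GRCm38.p6, minus strand), 249 bases ending before the first base of the GENCODE gene. Capitals mark the CREB half-site TGACG, here read from the other strand as CGTCA, at 49 to 45 bases before the RefSeq start:

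Ppargc1a: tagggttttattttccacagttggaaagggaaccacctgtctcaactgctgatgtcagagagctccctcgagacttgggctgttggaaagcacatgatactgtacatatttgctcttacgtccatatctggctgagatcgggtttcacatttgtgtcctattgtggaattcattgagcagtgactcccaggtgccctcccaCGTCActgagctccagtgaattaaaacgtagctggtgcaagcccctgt

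CREB is known to control Ppargc1a in liver, but whether this match is the element it uses there was not tested. A match of 5 letters is a description of the sequence only. Ppargc1b (chromosome 18, 61298136 to 61400431), its close relative, was at 12.5 and 12.0 CPM in vehicle and at 10.3 and 10.1 CPM in HDT. The groups did not overlap, but the log2 fold change of -0.26 (95% interval -0.47 to -0.05) just missed the threshold (limma adjusted p = 0.0533). It was called lower where genes needed at least 1 CPM in 2 libraries (limma adjusted p = 0.0457) and called higher with the values as deposited (0.27, limma adjusted p = 0.0407). Ppargc1a was 66.4% and 57.9% of the summed PGC-1 level per kb in the vehicle mice and 32.8% and 32.1% in the HDT mice, and the sum was 9.30 and 7.16 CPM per kb in vehicle against 3.84 and 3.73 in HDT.

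Ppara (chromosome 15, 85734983 to 85802819), which pairs with RXR to switch on fatty acid oxidation, was the scarcest regulator in vehicle. It was at 1.22 and 1.95 CPM in vehicle and at 1.303 and 0.892 CPM in HDT, from 43, 67, 67 and 45 reads. The groups overlapped, and the log2 fold change of -0.51 had a 95% interval from -1.20 to 0.18 (limma adjusted p = 0.222). The mice within each group differed by 1.59-fold in vehicle and 1.46-fold in HDT. It was called in none of the 16 alternatives run.

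The nuclear respiratory factors and Tfam had log2 fold changes above the median, though Gabpa was not called and its groups overlapped. Nrf1 (nuclear respiratory factor 1, chromosome 6, 30047988 to 30153458) was at 12.9 and 12.7 CPM in vehicle and at 17.1 and 16.98 CPM in HDT. The mice of each group were nearly alike and the groups well apart, with a log2 fold change of 0.41 (SE 0.0813, limma adjusted p = 0.00548). It was called higher in all 16 alternatives, with log2 fold changes from 0.39 to 0.44 and, as deposited, 0.94.

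Tfam (chromosome 10, 71225464 to 71238280) was at 28.0 and 27.5 CPM in vehicle and at 33.1 and 32.4 CPM in HDT, again without overlap. Its log2 fold change of 0.24 (SE 0.0662, limma adjusted p = 0.0239) was the smallest of the called changes. The limma adjusted p was 0.0827 with vehicle replicate 1 left out, 0.12 with vehicle replicate 2 left out and 0.0762 with HDT replicate 1 left out, and DESeq2 gave an adjusted p of 0.0791, at log2 fold changes from 0.22 to 0.25. The stretch shown holds the ETS-type core CCGGAAG, the kind of element that GABP binds, in capitals at 47 to 41 bases before the RefSeq start, with 10 bases on each side (chr10:71238075-71238101, GRCm38.p6, minus strand). It lies inside the GENCODE gene, which begins further upstream than the RefSeq start:

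Tfam: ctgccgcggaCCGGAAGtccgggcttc

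This core stands in 6.91% of all windows, and in 13.8% of the tested genes with a window. Gabpa (chromosome 16, 84834925 to 84863779), the DNA-binding subunit of GABP, has the same core in its own upstream window, at 93 to 87 bases before the RefSeq start, again inside the GENCODE gene. Gabpa was at 43.6 and 47.9 CPM in vehicle and at 50.7 and 47.4 CPM in HDT, so the groups overlapped. Its log2 fold change was 0.10 with a 95% interval from -0.07 to 0.27 (limma adjusted p = 0.323), and 0.63 with the values as deposited (limma adjusted p = 4.39e-05). Gabpa shares 397 of its 5687 exon bases with the opposite-strand gene Atp5j, whose reads there cannot be told from its own without a strand setting. The palindromic NRF-1 motif was found in the window of 1 regulator, Ppara, at 31 to 22 bases before the RefSeq start and inside the longer GENCODE gene. It stands in 0.782% of all windows and in 1.61% of the tested genes with a window.

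**Figure D3:**
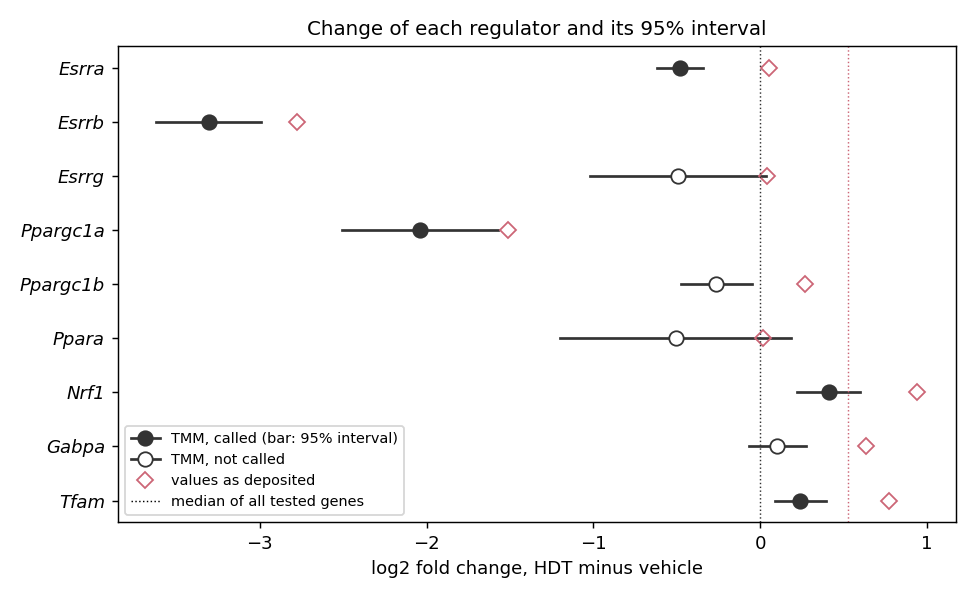
Log2 fold change of HDT minus vehicle for each regulator with TMM (circles, filled where called, bars the 95% interval of limma) and with the values as deposited (diamonds), and the median of all tested genes for each scaling as dotted lines. Esrrb and Ppargc1a lie far left of the median under either scaling, and Esrra, Esrrg, Ppara and Ppargc1b lie left of the median but change sign with the deposited values.

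The counts of the pathway lists are to be read against the 19.3% of all tested genes called lower and the 18.4% called higher. Counts given as deposited are to be read against that scaling, where 11483 of all 18285 tested genes were called higher and 998 lower. Of 17 coregulators of PGC-1 and the ERRs, 4 were lower, 6 were higher and 7 were not called, with a median log2 fold change of 0.16 against -0.0015 for all tested genes (2 lower and 13 higher as deposited). Perm1, a PGC-1 and ERR induced regulator of oxidative genes in muscle, went from 7.75 and 8.51 CPM to 1.54 and 1.84 CPM (log2 fold change -2.26, limma adjusted p = 3.35e-05). The corepressor-like receptor Nr0b2 went from 13.3 and 10.2 CPM to 6.16 and 4.74 CPM (-1.11, limma adjusted p = 0.00223). The third PGC-1 family gene, Pprc1, rose from 18.0 and 15.9 CPM to 29.9 and 26.97 CPM (0.75, limma adjusted p = 0.000531), opposite to Ppargc1a. The acetyltransferase Ep300 rose by 0.45 on the log2 scale (limma adjusted p = 0.000801).

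Of 22 genes that act upstream of PGC-1, 7 were lower, 3 higher and 12 not called, against 37.7% of all tested genes called, and the median was -0.09 (0 lower and 15 higher as deposited). Camkk2, a kinase that activates AMPK, had a log2 fold change of -0.72 and Prkaa2, a catalytic AMPK subunit, of -0.62, and both were without a call as deposited (-0.19 and -0.09). The AMPK subunit Prkab1 rose by 0.49 and the methyltransferase Prmt1 by 0.41.

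Of 13 tested nuclear receptors related to Ppara or sharing its partners, 5 were lower, 1 higher and 7 not called, and the median was -0.07 (0 lower and 8 higher as deposited). Without either vehicle replicate 3 were lower, and without HDT replicate 1 2 were higher. The clock receptor Nr1d1 had a log2 fold change of -0.52 and the thyroid hormone receptor Thrb of -0.46, values that turn to 0.02 and 0.07 as deposited, and Nr2f2, a mesenchymal receptor, rose by 0.34. The classical estrogen receptor Esr1 was at 1.16 and 1.68 CPM in vehicle and at 1.147 and 1.55 CPM in HDT, and Esr2 had 0 reads in all 4 libraries.

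Partners of Nrf1 and Gabpa were higher or not called: 4 of 6 were higher and 0 lower, and the median was 0.33 (6 higher and 0 lower as deposited). The cofactor Hcfc1 rose from 48.2 and 54.4 CPM to 85.6 and 77.5 CPM (0.67, limma adjusted p = 0.000528), Sp1 rose by 0.45, and the GABP beta subunit gene Gabpb2 rose by 0.40. Without vehicle replicate 1 only 2 of the 6 were called higher.

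Of 21 genes that transcribe or copy mitochondrial DNA, the processes Tfam serves, 4 were lower, 3 were higher and 14 were not called, near the shares among all tested genes (19.3% and 18.4%), with a median of 0.06 (0 lower and 18 higher as deposited). The mitochondrial RNA polymerase gene Polrmt was at 16.7 and 15.8 CPM in vehicle and at 16.5 and 16.1 CPM in HDT. The elongation factor Tefm had a log2 fold change of -0.42 and the protease Lonp1 of -0.30, both above 0 as deposited (0.12 and 0.23), and Lrpprc, which stabilises mitochondrial mRNA, rose by 0.33. The nuclease-helicase Dna2, which also acts in nuclear replication, rose by 1.79, and 5 of 5 markers of dividing cells were higher (summed level 96.9 and 115 CPM in vehicle, 468 and 384 CPM in HDT), whose part in this was not tested. Leaving out any 1 mouse left 1 lower gene in this list.

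Of 23 tested targets of the ERRs, 20 were lower and 0 higher, against 19.3% and 18.4% of all tested genes, and the median was -0.54 (8 lower and 4 higher as deposited). Slc25a4, the ADP/ATP carrier, went from 197 and 195 CPM to 79.3 and 76.0 CPM (-1.34, limma adjusted p = 4.68e-06), and the fatty acid dehydrogenase Acadm from 106 and 108 CPM to 49.6 and 50.6 CPM (-1.10, limma adjusted p = 1e-05). Ckmt2 had 0 reads in all libraries. Of 20 targets of NRF-1 or GABP, 13 were lower and 1 higher, and the median was -0.46 (9 lower and 10 higher as deposited), while Nrf1 itself was higher. The cytochrome c oxidase subunit Cox6c went from 211 and 205 CPM to 70.9 and 80.2 CPM (-1.46, limma adjusted p = 7.38e-06) and the copper chaperone Cox17 had a log2 fold change of -1.31. The import receptor Tomm70a, the 1 member that was higher, rose by 0.33. Both target lists hold respiratory chain genes and were chosen with earlier results of these data known. Whether the ERRs, or NRF-1 and GABP, had a part in these falls was not tested.

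Of 18 tested targets of PPAR-alpha, 5 were lower, 4 higher and 9 not called, near the shares among all tested genes (19.3% and 18.4%), and the median was -0.13 (2 lower and 13 higher as deposited). Without vehicle replicate 1, vehicle replicate 2 or HDT replicate 1, 3 were lower. The fatty acid binding protein gene Fabp1 went from 8.35 and 6.07 CPM to 0.972 and 0.951 CPM (-2.86, limma adjusted p = 3.09e-05) and the very long chain dehydrogenase Acadvl had a log2 fold change of -0.80. The pantetheinase Vnn1 rose from 0.994 and 0.755 CPM to 4.36 and 5.47 CPM (2.47, limma adjusted p = 9.95e-05) and the thioesterase Acot1 rose by 1.19. Cyp4a10, Cyp4a14 and Fgf21, well known PPAR-alpha targets of the liver, had 0 reads in all libraries.

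**Figure D4:**
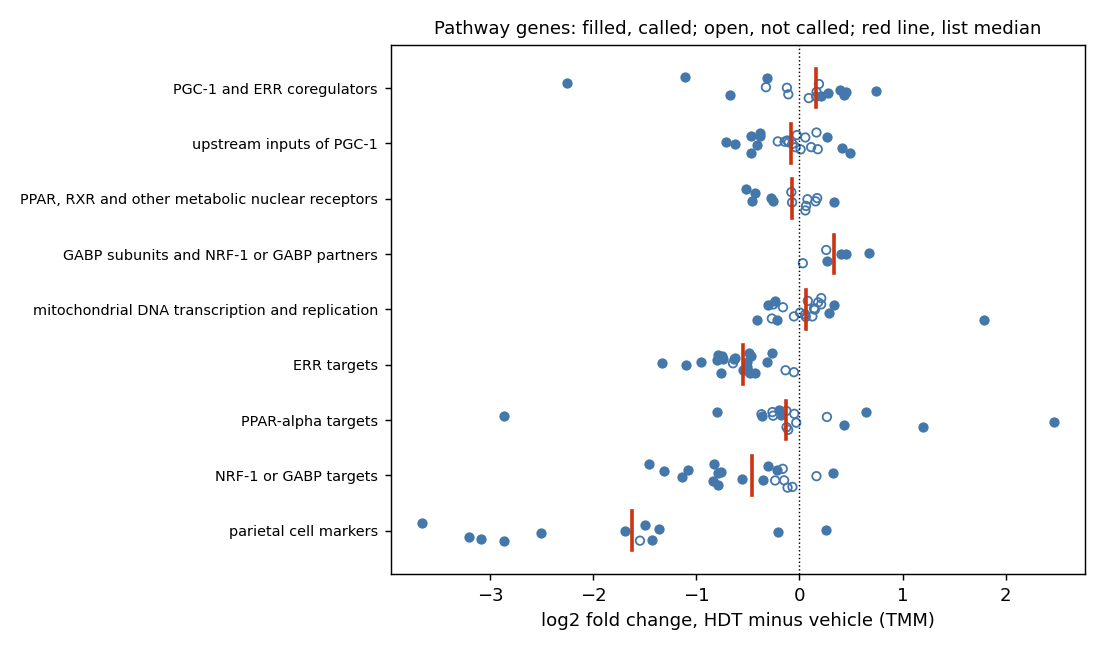
Log2 fold change with TMM of every tested gene of 8 pathway lists and of the parietal cell markers, filled where called, with the median of each list (red) and of all tested genes (dotted). The ERR targets and the NRF-1 or GABP targets lie mostly left of the dotted line, with medians of -0.54 and -0.46, and the parietal markers lie further left, at -1.62.

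Markers of the parietal cell were mostly lower. Counts of called markers of each cell type are to be read against all tested genes. Of those, 19.3% were called lower and 18.4% higher. Of 12 parietal markers, 10 were lower and 1 higher, and none was at 0. Their summed level was 14532 and 15862 CPM in vehicle and 3407 and 2960 CPM in HDT, a ratio of vehicle over HDT of 4.77. The proton pump subunit Atp4b had a log2 fold change of -3.20, the pump subunit Atp4a of -2.87, Slc26a7 of -3.66, Aqp4 of -3.08, Hrh2 of -2.51 and Kcnj16 of -1.69. Those of Kcnq1, Clic6, Slc4a2 and Kcne2 lay between -1.55 and -1.37, of which Kcnq1 was not called (limma adjusted p = 0.0738), and the other two, Kcnj15 and Slc9a4, were at -0.21 and 0.26. In bulk tissue, fewer cells of a type and less RNA per cell cannot be told apart, and the part of parietal cell content in the falls of Esrrb, Ppargc1a, Esrra and the target genes was not tested. Markers of chief cells were also lower, 4 of 5 tested (summed level 155610 and 188890 CPM in vehicle, 45439 and 32105 CPM in HDT), and Lipf was at 0. Also lower were 6 of 6 markers of pit cells (123330 and 120350 CPM in vehicle, 65737 and 80615 CPM in HDT), 3 of 4 of mucous neck cells (1688 and 1721, then 670.3 and 705.9 CPM) and 2 of 4 tested of endocrine cells (1497 and 1614, then 1314 and 949.8 CPM). Their part in the falls was not tested.

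Of 6 smooth muscle markers 0 were called, and their summed level was 2893 and 2038 CPM in vehicle and 1739 and 2548 CPM in HDT. Adipocyte markers summed to 27.0 and 18.7 CPM in vehicle and to 15.2 and 17.5 CPM in HDT, with 1 of 4 tested called, higher. Skeletal muscle markers summed to 8.46 and 5.26 CPM in vehicle and to 4.86 and 7.98 CPM in HDT, with 0 of 3 tested called. The adipocyte, smooth muscle and skeletal muscle sums, like Ppargc1a, were higher in vehicle replicate 1 than in vehicle replicate 2. In HDT these sums were higher in replicate 2, while Ppargc1a was at 8.30 CPM in replicate 1 and 7.89 in replicate 2. Most of the adipocyte sum in vehicle was Cidec, at 22.1 and 15.8 CPM. The part of these tissues in the gap of Ppargc1a between the vehicle mice was not tested. Fibroblast markers were higher for 4 of 5 and macrophage markers for 3 of 5, against 18.4% of all tested genes. The fibroblast sum was 820.5 and 798.6 CPM in vehicle and 1451 and 1622 CPM in HDT.

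Genes with the pattern nearest to a regulator over the 4 libraries were sought among 11397 genes, by Euclidean distance of log2 values centred on their mean. Nearest to Esrrg was Gramd1a, a sterol transfer protein gene, at 12.8 and 14.1 CPM in vehicle and at 11.4 and 7.73 CPM in HDT (distance 0.0414), followed by Gm42928 and Plxnb1. Nearest to Esrra was Timm17a, a subunit of the mitochondrial import channel, at 53.4 and 52.99 CPM in vehicle and at 37.4 and 38.2 CPM in HDT (distance 0.0139), followed by Hpcal1 and Ube2f. Nearest to Ppargc1a was Thnsl2, at 15.7 and 10.5 CPM in vehicle and at 3.13 and 2.58 CPM in HDT (distance 0.193), followed by the pseudogene Gm28437 and by Ifi27. With 4 libraries these are descriptions of likeness.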

How the data were processed

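The tools named per the submitters' processing notes are edgeR, featureCounts, STAR 2.7.1a and Subread 2.0.0, and the builds mm10 and GRCm38. The normalization method, like annotation and strand setting, is not given in the sources used here. Each deposited value is a signal, a gene count times a constant of its library (vehicle replicate 1 1.1381, vehicle replicate 2 1.12, HDT replicate 1 1.1192, HDT replicate 2 1.1128), and 100% of values above 0 were whole reads after division by it, to within 0.01. The filter on low values was filterByExpr of edgeR, run on the recovered reads. The deposited values were divided by column total times TMM factor, 0.848, 0.818, 1.22 and 1.18, and log2(value + 1) was tested with limma 3.58.1 (trend, robust), two-sided, so fold changes of genes with few reads are understated. The step was tested on simulated data. Those had few changed genes and no set difference in RNA composition, so the choice of scaling was not tested. edgeR 4.0.16 and DESeq2 1.42.0 on recovered reads, other scalings, filters, pseudocounts, a replicate block and leaving out each mouse were alternatives. edgeR called 3358 genes higher and 3511 lower.

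Members and lists were chosen with earlier results of these data known, and the motifs with the sequences in view. Named list genes are the 2 largest called rises and falls of each list with at least 1 CPM, all parietal markers, and the 3 nearest patterns of Esrrg, Esrra and Ppargc1a; others were chosen after their values were seen. Upstream windows are RefSeq's (GRCm38.p6), and exon lengths GENCODE M21's.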

Additional observations from a re-analysis of the deposited data

How the results depend on the processing

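Of 752 single-gene values recomputed for 47 genes under 16 alternatives, 704 kept their direction and their side of the threshold, 31 lost the call, 8 gained it and 9 changed sign, all 9 with the values as deposited. Those were Esrra (0.0496), Esrrg (0.0383), Ppargc1b (0.27), Ppara (0.0157), Nr1d1 (0.0168), Thrb (0.072), Tefm (0.12), Lonp1 (0.23) and Kcnj15 (0.32), where the median of all genes was 0.53. Relative to that median the 4 regulators among them were at -0.48, -0.49, -0.26 and -0.51. That likeness to TMM follows from the factor per library and adds no evidence.

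As deposited, 11483 genes were higher and 998 lower, 4 regulators were higher, and the counts of lower and higher genes were 2 and 13 for coregulators, 0 and 15 for upstream inputs, 0 and 8 for nuclear receptors, 0 and 18 for mitochondrial DNA genes, 8 and 4 for ERR targets, and 2 and 13 for PPAR-alpha targets, with 10 higher NRF-1 or GABP targets. With the replicate block, 1 regulator was higher (Tfam had an adjusted p of 0.0807), and 3 nuclear receptors, 0 mitochondrial DNA genes and 3 PPAR-alpha targets were lower. The labels do not say that the numbers pair mice, and the deviations of same-numbered mice correlated at -0.157 over genes. DESeq2 called 1 regulator higher, 1 mitochondrial DNA gene and 3 PPAR-alpha targets lower. With upper-quartile scaling 2 nuclear receptors were higher, and 2 mitochondrial DNA genes and 3 PPAR-alpha targets lower, as were 2 and 3 with no low-value filter. The cause of these shifts was not tested.

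With each mouse left out in turn, 3 regulators were lower each time, but without HDT replicate 1 these were Esrra, Esrrb and Esrrg. The higher regulators numbered 1 to 2. Lower genes numbered 3 to 4 among nuclear receptors, 1 to 1 for mitochondrial DNA and 3 to 5 among PPAR-alpha targets, and higher genes 1 to 2 among nuclear receptors and 2 to 5 among partners of Nrf1 and Gabpa. Counting error is largest for Ppara, with 43 to 67 reads per library. No group has enough mice for a test of a single outlying mouse. Each fit without a mouse leaves a single mouse in its group, so calls there, that of Esrrg included, hold no spread within that group.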
